A study of Homo sapiens with 4 samples.

Results

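The 10 genes described here encode proteins that cleave, help to cleave or are cleaved inside human mitochondria. They are PARL, OMA1, YME1L1, AFG3L2, SPG7, LONP1, CLPP, CLPX and HTRA2, with OPA1 as a common target of several of these enzymes. They were taken by symbol from a table of 39634 genes, each symbol stood on 1 row, and all 10 were among the 15336 genes with enough counts to be tested. PARL was chosen by its higher counts with the Fer shRNA in these same 4 libraries, so its difference is given as a description and carries no test. The other 9 are its relatives in function, listed with earlier results of these data known.

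The libraries came from BEAS-2B, an immortalised line of human bronchial epithelial cells, grown in the serum-free medium N2B27. The 2 libraries labelled Fer knockdown carried an shRNA against FER, a cytoplasmic tyrosine kinase, and the 2 control libraries carried a control shRNA. The series asks how loss of FER changes gene expression in this line. The labels describe 1 cell line and 1 shRNA per arm, and do not state that replicates were grown apart. The p-values therefore reflect library-to-library spread alone, which may be technical. The first pair is called the knockdown-labelled libraries below, because FER mRNA was not lower in it.

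Mitochondria destroy and trim proteins with enzymes of their own. The rhomboid PARL cuts membrane-spanning proteins within the inner membrane. OMA1 and the ATP-driven protease YME1L1 cut OPA1, the dynamin-like GTPase that fuses inner membranes and holds cristae in shape. AFG3L2 and SPG7 (paraplegin) form the matrix-facing m-AAA protease. LONP1 and the CLPX-CLPP pair degrade proteins in the matrix, and HTRA2 is a serine protease of the intermembrane space. All are encoded in the nucleus, so their mRNAs are made and counted apart from those of the mitochondrial chromosome.

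Library totals ran from 21422976 to 25169713 counts. FER, the targeted gene, had 404 and 535 counts in the knockdown-labelled libraries, against 334 and 459 in control, a log2 fold change of 0.02 ± 0.17 (SE), so each direction given here follows the label. Counts from the mitochondrial chromosome made up 9.62% and 9.37% of the knockdown-labelled libraries and 16.9% and 19.4% of the control libraries, each with a 95% Wilson half-width of at most 0.0162 percentage points. Ribosomal protein genes took 5.58% and 5.83%, against 4.67% and 3.51% in control. The 2 knockdown-labelled libraries lay closer to each other (median absolute log2 difference over tested genes of 0.111) than the 2 control libraries did (0.241). Of 9 epithelial markers, 6 reached at least 1 CPM (read counts scaled to a common library size with TMM factors) in every library, led by KRT8 and KRT18. KRT5 and TP63 were below 1 CPM and NKX2-1 had 0 counts in every library. The summed levels of 3 immune and of 2 endothelial markers were at most 0.646 and 2.49 CPM. The immune marker CD3E had 0 counts in every library. Of 5 fibroblast markers, DCN and LUM had 0 counts. Their sum, mostly COL1A1 and PDGFRB, was 91.0 and 88.9 CPM in the knockdown-labelled libraries and 106 and 117 CPM in control. Whether any of these shifts plays a part in the results below was not tested.

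PARL stood apart from the other 9 genes. It had 191 and 242 counts in the knockdown-labelled libraries, against 72 and 54 counts in control. On the CPM scale this was 8.41 and 9.11 in the knockdown-labelled libraries, against 3.52 and 2.49 in control. Both knockdown-labelled libraries lay well above both control libraries, a separation without overlap that 25.8% of all tested genes showed in that direction. The log2 fold change of Fer knockdown over control was 1.55 ± 0.24 (SE, n = 2 each), or 2.92-fold, and this is the value by which PARL was chosen. In bulk RNA, more transcript per cell and more cells with the transcript cannot be told apart.

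**Figure D1:**
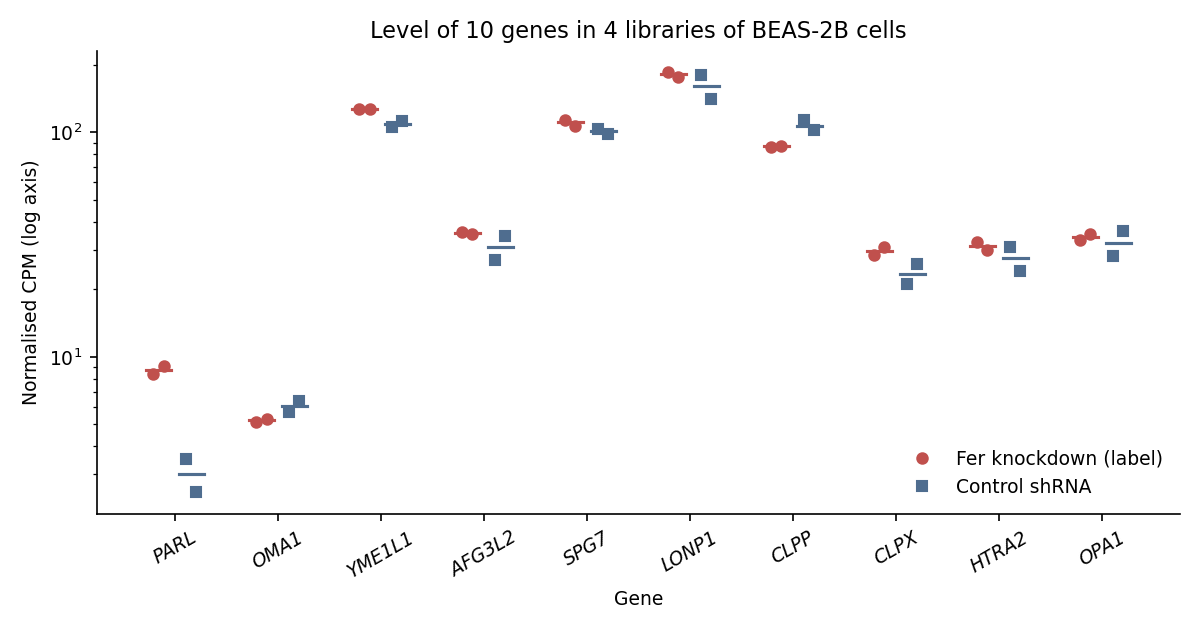
Level of each of the 10 genes as CPM on a log axis, with 1 point per library, red circles for the knockdown-labelled libraries, blue squares for control, and a bar at each mean of 2. PARL is the gene whose groups lie farthest apart, at 8.41 and 9.11 CPM against 3.52 and 2.49 CPM in control.

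The PARL counts rest on a locus that 2 annotated genes share. PARL (ENSG00000175193) lies on the minus strand at chr3:183829271-183884933 (GRCh38, GENCODE release 29). A second protein-coding gene of that release, AC131160.1 (ENSG00000283765), runs along the same strand and shares exons with PARL. Of the exonic bases of PARL, 47.2% also belong to AC131160.1. In the principal PARL transcript the share was 75.7%, or 1071 of 1414 bases. Of its 10 exons, 8 were shared whole, and exon 1 was shared except for 18 bases. Exon 10 alone, which holds the end of the coding sequence and the 3′ untranslated region, had none of its 325 bases in common with AC131160.1. AC131160.1 was not analysed here. The release the authors counted against is not given in the sources used here, nor is whether reads from shared exons went to PARL, to the other gene or to neither. The deposited length of PARL, 2268 bases, equals its exonic bases in release 29, shared ones included. Of all deposited lengths, 60.6% equal those of release 29, and those of CLPP (3531, against 2278 in release 29) and HTRA2 (2617, against 3001) do not.

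The sequence below crosses the point where the shared part ends, and is shown because the principal PARL transcript is unshared past it, to its 3′ end. The lower-case letters are the 98 bases of exon 9 (chr3:183833492-183833589), which both genes contain. The capitals are the 109 coding bases of exon 10 (chr3:183829601-183829709), which AC131160.1 lacks. Both are on the minus strand of GRCh38, joined as in the spliced transcript of GENCODE release 29.
PARL exons 9 and 10: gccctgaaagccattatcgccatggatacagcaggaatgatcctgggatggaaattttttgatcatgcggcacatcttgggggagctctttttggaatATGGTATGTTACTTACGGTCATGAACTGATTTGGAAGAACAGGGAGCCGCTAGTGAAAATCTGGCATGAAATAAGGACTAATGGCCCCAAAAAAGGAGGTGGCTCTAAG

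**Figure D2:**
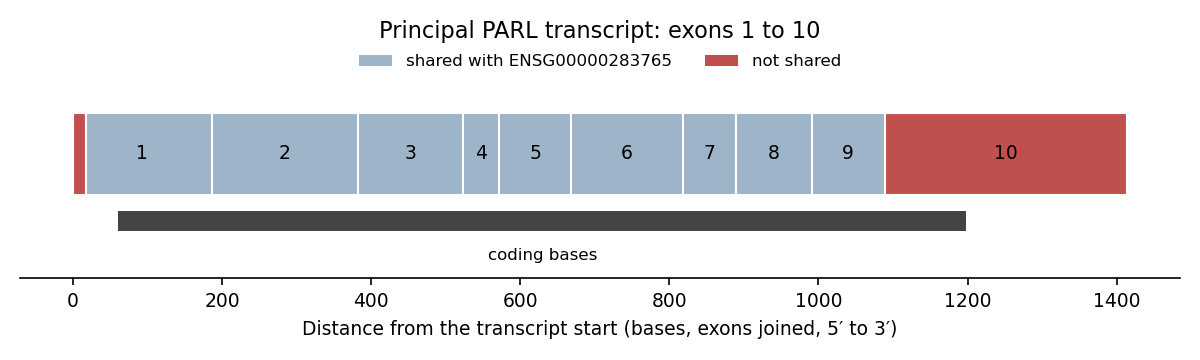
The principal PARL transcript with its 10 exons joined, drawn to scale by distance in bases from its 5′ end, with the coding bases as a dark bar. Blue bases (1071) are shared with ENSG00000283765, and red bases (343, of which 325 are exon 10) are not.

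The remaining overlap at PARL was small. The pseudogene RPSAP31 shares 10 bases with it on the opposite strand, and had 0 and 1 counts in the knockdown-labelled libraries and 1 and 0 in control. Among all tested genes, 388 share over 30% of their exonic bases with another gene on the same strand, a limit set after the values were seen. Of these, 5 (1.29%) were higher past an edgeR adjusted p of 0.05, where 0.280% of all tested genes were. Only 1 was lower, where 0.365% of all tested genes were. The 5 were PARL, TXNDC12, LDHB, SNHG25 and RMRP. As PARL was chosen for its rise and the limit was set with it in view, the count is a description. TXNDC12, a thioredoxin-like protein of the endoplasmic reticulum, had 7.31 and 8.40 CPM in the knockdown-labelled libraries and 3.13 and 2.77 CPM in control. LDHB, a lactate dehydrogenase subunit, had 6.47 and 9.30 CPM, against 2.98 and 2.08 CPM in control. For both, as for PARL and for 25.8% of all tested genes, neither control library reached either knockdown-labelled library. The part of the shared exons in these differences was not tested.

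Of the 10 genes, 1, PARL, was past the threshold and higher, against a background of 0.280% of all tested genes, and 0 were lower (background 0.365%). PARL was picked for that, so nothing is read from the count. Of the other 9, 0 passed in edgeR's quasi-likelihood test, 1 (CLPP) had an unadjusted p under 0.05 (background 17.7%), and 0 passed in DESeq2. Their median log2 fold change was 0.18, beside 0.01 over all tested genes, with 7 positive and 2 negative. The groups did not overlap for 6 of the 9, 4 above and 2 below control, where 49.2% of all tested genes did not overlap (25.8% above and 23.4% below).

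**Figure D3:**
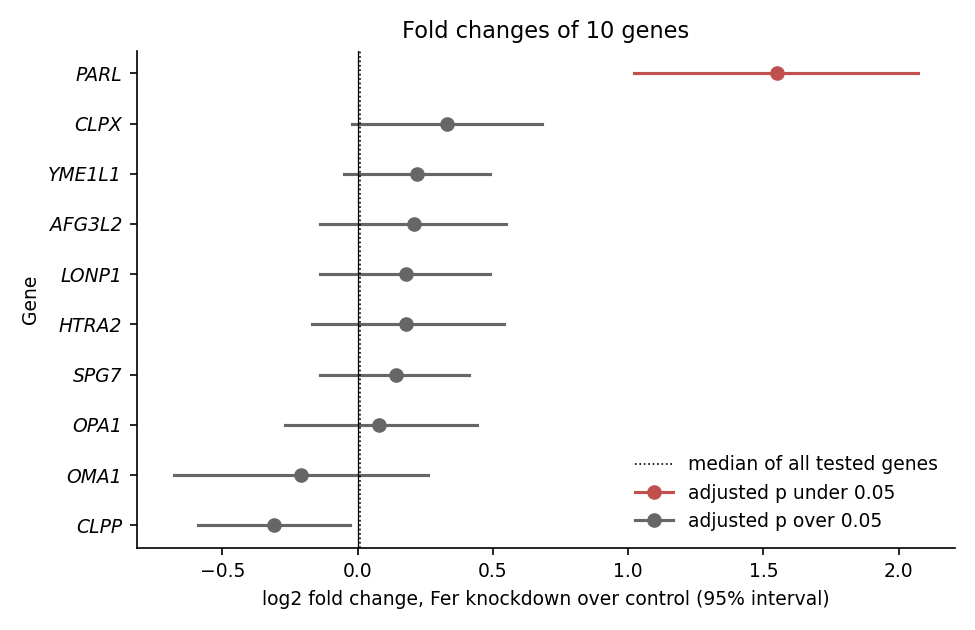
log2 fold change of Fer knockdown over control for each of the 10 genes, with its 95% interval from the edgeR fit, and the median of all tested genes (0.01) as a dotted line. PARL was chosen for its rise in these libraries, so its interval, 1.02 to 2.07, is a description. The interval of CLPP runs from -0.59 to -0.03, and those of the other 8 include 0.

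Among the proteins that act on OPA1, none passed the test. OMA1, the stress-activated metalloprotease that cuts long OPA1, had 5.11 and 5.31 CPM in the knockdown-labelled libraries, against 5.67 and 6.36 CPM in control. The groups did not overlap and lay close together, with a log2 fold change of -0.21 ± 0.21 (SE), a 95% interval of -0.68 to 0.26 and an edgeR adjusted p of 0.654. OMA1 shares 6.91% of its exonic bases with DAB1 on the same strand, and DAB1 had 0 counts in all 4 libraries.

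YME1L1, the i-AAA protease that cuts OPA1 from the intermembrane side, had 127 and 127 CPM in the knockdown-labelled libraries, against 106 and 112 CPM in control. Both knockdown-labelled values were above both controls, and the log2 fold change was 0.22 ± 0.12 (SE, 95% interval -0.05 to 0.49, edgeR adjusted p = 0.377). YME1L1 shares 6.04% of its exonic bases with MASTL on the opposite strand. OPA1 itself had 33.1 and 35.2 CPM, against 28.2 and 36.2 CPM in control. The 2 control values of OPA1 enclose those of the knockdown-labelled libraries, and its log2 fold change was 0.08 ± 0.16 (95% interval -0.27 to 0.44, edgeR adjusted p = 0.834). Per kilobase of principal transcript, OMA1 was counted at 0.0799 and 0.0834 times the level of YME1L1 in the knockdown-labelled libraries and at 0.107 and 0.113 times in control. This ratio was computed after the values were seen and is a description.

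The subunits of the m-AAA protease also did not pass the test. AFG3L2, which can form the protease alone or with paraplegin, had 35.8 and 35.1 CPM in the knockdown-labelled libraries, against 27.1 and 34.4 CPM in control. Its log2 fold change was 0.21 ± 0.16 (SE, 95% interval -0.14 to 0.55, edgeR adjusted p = 0.538), and the higher control library lay close to both knockdown-labelled libraries. AFG3L2 shares 12.6% of its exonic bases with TUBB6 on the opposite strand, a tubulin gene with over 10 times its counts, and the strand setting of the counting is not given in the sources used here. SPG7, mutated in a hereditary spastic paraplegia, had 114 and 107 CPM in the knockdown-labelled libraries, against 103 and 97.9 CPM in control. The groups of SPG7 did not overlap, and its log2 fold change was 0.14 ± 0.12 (95% interval -0.14 to 0.41, edgeR adjusted p = 0.608).

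In the matrix, the partners of the CLPXP protease lay in opposite directions and neither passed the test. CLPX, the ring that unfolds substrates, had 28.5 and 30.7 CPM in the knockdown-labelled libraries, against 21.2 and 25.9 CPM in control (log2 fold change 0.33 ± 0.16 SE, 95% interval -0.02 to 0.68, edgeR adjusted p = 0.305). CLPP, the chamber that cuts them, had 86.0 and 87.2 CPM in the knockdown-labelled libraries, against 113 and 102 CPM in control (log2 fold change -0.31 ± 0.13 SE, 95% interval -0.59 to -0.03, edgeR adjusted p = 0.242). Neither gene had overlapping groups, CLPX lying above control and CLPP below it. The ratio of CLPX to CLPP per kilobase of principal transcript was 0.0818 and 0.0869 in the knockdown-labelled libraries and 0.0463 and 0.0628 in control, again computed after the values were seen.

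LONP1, the ATP-driven protease of the matrix, had groups that overlapped. It had 186 and 176 CPM in the knockdown-labelled libraries, against 180 and 140 CPM in control, with a log2 fold change of 0.18 ± 0.14 (SE, 95% interval -0.14 to 0.49, edgeR adjusted p = 0.566). HTRA2, which once released from mitochondria binds inhibitors of apoptosis, had 32.4 and 30 CPM in the knockdown-labelled libraries, against 30.9 and 24.1 CPM in control. The groups of HTRA2 overlapped, and its log2 fold change was 0.18 ± 0.16 (SE, 95% interval -0.17 to 0.54, edgeR adjusted p = 0.599). HTRA2 shares 36.9% of its exonic bases with genes on the opposite strand, 16.1% with AUP1 and 20.8% with LOXL3. AUP1 had 4072 and 4696 counts in the knockdown-labelled libraries and 4577 and 3899 in control, and LOXL3 had 124 and 131, against 104 and 91 in control. For HTRA2, reads from these neighbours cannot be told apart without strand.

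These values depend on which control library is used. Without control replicate 1, 31.3% of all tested genes passed the threshold (16.1% higher and 15.1% lower), and so did 3 of the 9 genes besides PARL: LONP1 at 0.38 (adjusted p = 5.41e-06), HTRA2 at 0.38 (0.00694) and CLPP at -0.23 (0.0350). Without control replicate 2, 21.9% of all tested genes passed (10.2% higher and 11.6% lower), and so did 4 of the 9: CLPP at -0.40 (adjusted p = 5.52e-05), CLPX at 0.46 (0.00169), AFG3L2 at 0.36 (0.00983) and YME1L1 at 0.25 (0.0159). With so many genes passing, nothing particular to the proteases is read from these counts. The 2 fits share both knockdown-labelled libraries and so are not independent. Each edgeR fit assumes that its single control library varies as the 2 knockdown-labelled libraries do. Without control replicate 2, LONP1 stood at -0.02 and HTRA2 at -0.01, and without control replicate 1 OPA1 stood at -0.08, each opposite in sign to its value in all 4 libraries. PARL ranged from 1.29 (without control replicate 2) to 1.82 (without control replicate 1).

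**Figure D4:**
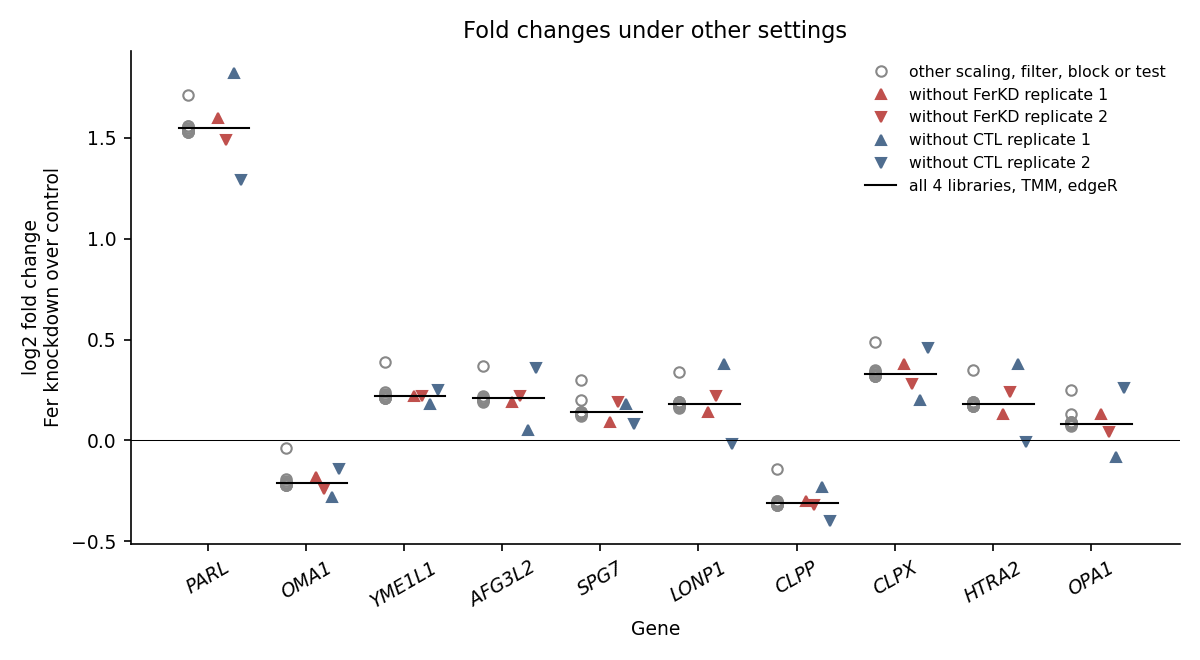
log2 fold change of each of the 10 genes under each setting, with the black line for all 4 libraries, open circles for other scalings, filters, a block or other tests, and triangles for fits without 1 library (red for a knockdown-labelled library, blue for control). PARL stays between 1.29 and 1.82, while LONP1, HTRA2 and OPA1 lie on both sides of 0.

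Levels were compared between genes per kilobase of principal transcript, as CPM per kb. CLPP was highest, at 74.8 ± 0.711 in the knockdown-labelled libraries and 92.7 ± 6.93 in control (SD, n = 2 each), and LONP1 followed at 55.9 ± 2.20, against 49.5 ± 8.87 in control. SPG7 (33.0 ± 1.56, against 29.9 ± 1.14 in control) and YME1L1 (33.0 ± 0.0931, against 28.3 ± 1.22 in control) did not differ from each other beyond their spread. HTRA2 was at 13.2 ± 0.705, against 11.6 ± 2.01 in control, and AFG3L2 at 10.9 ± 0.146, against 9.47 ± 1.57 in control. CLPX and OPA1 were lower still, at 6.31 ± 0.330 and 5.34 ± 0.227 in the knockdown-labelled libraries and at 5.02 ± 0.699 and 5.04 ± 0.893 in control. OMA1 was at 2.69 ± 0.0734, against 3.11 ± 0.252 in control.

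The place of PARL in this order differed between the groups. It stood at 6.20 ± 0.351 CPM per kb in the knockdown-labelled libraries, within the spread of CLPX. In control it was at 2.13 ± 0.516, the lowest of the 10. The length used for PARL includes the 1071 bases shared with AC131160.1. Whether reads from those bases were counted is not known. If they were not, both levels of PARL are too low and its place in the order would be higher or unchanged. The order also depends on the length used. With the deposited lengths, which exceed the principal transcript for all 10 genes, SPG7 with its 35761 bases dropped to 3.10 ± 0.146 in the knockdown-labelled libraries and 2.81 ± 0.107 in control, LONP1 came first, and PARL was at 3.86 ± 0.219, against 1.33 ± 0.322 in control.

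The 5 tested genes whose centred log2 CPM over the 4 libraries lay nearest to that of PARL were RPS27AP16 (Euclidean distance 0.0678), RGS16, a regulator of G-protein signalling (0.108), SNHG8, a host gene of small nucleolar RNA (0.153), RPS12 (0.167) and COPS9, of the COP9 signalosome (0.235). RPS27AP16, a processed pseudogene of a ribosomal protein gene whose reads can come from its parent, had 15.5 and 15.8 CPM in the knockdown-labelled libraries and 6.46 and 4.61 CPM in control. RPS12, a protein of the small ribosomal subunit, had 516 and 618 CPM, against 256 and 177 CPM in control. RGS16 had few counts, 30 and 38 in the knockdown-labelled libraries and 10 and 8 in control, so its profile is less certain. Being chosen by this profile, these 5 genes were, like PARL, higher in control replicate 1 than in control replicate 2. With 4 libraries many profiles lie close together, and the likeness is a description.

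The genes around the proteases were described by 6 lists of 60 genes, all of which were tested, and 0 of the 60 passed the threshold in either direction (background 0.646%). By unadjusted edgeR p under 0.05 the lists held from 0 of 11 to 5 of 13 genes each, where 17.7% of all tested genes had such a p. DESeq2 called 4 of the 60, all higher (ROMO1, SMDT1, STARD7 and TIMM17A), where it called 3.78% of all tested genes, 1.62% higher and 2.16% lower.

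Substrates of PARL are proteins cut by it in human cells, among them the kinase PINK1 and the phosphatase PGAM5. Of 6 substrates, 5 had a positive and 1 a negative fold change, with a median log2 fold change of 0.12 beside 0.01 over all tested genes. STARD7, which carries phosphatidylcholine to mitochondria, had 94.7 and 101 CPM in the knockdown-labelled libraries and 68.5 and 71.7 CPM in control, and its groups stood well apart. Its log2 fold change was 0.48 ± 0.13 (SE, edgeR adjusted p = 0.0984). PGAM5 was at 0.23 ± 0.14 (adjusted p = 0.452). Relatives of PARL in the rhomboid family act elsewhere in the cell, and their 8 members had a median of -0.08, with 3 positive and 5 negative. Without overlap, 2 of the 8 lay above control and 4 below, beside 25.8% and 23.4% of all tested genes. Among those below was RHBDD2 at -0.23 ± 0.12 (SE, edgeR adjusted p = 0.362). The 2 with the smallest p were both above. RHBDL3, with 6.61 and 7.34 CPM in the knockdown-labelled libraries and 4.55 and 3.23 CPM in control, was at 0.85 ± 0.24 (adjusted p = 0.118), and RHBDD3 at 0.34 ± 0.15 (adjusted p = 0.281).

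Other mitochondrial proteases had a median log2 fold change of -0.03 over 11 genes, 5 positive and 6 negative. Of the 11, 4 lay above control without overlap and 2 below, beside 25.8% and 23.4% of all tested genes. The 2 below were NLN at -0.20 and PMPCB at -0.11. IMMP1L, a subunit of the inner membrane peptidase, and PMPCA, of the peptidase that removes import signals, were at 0.58 ± 0.29 and 0.30 ± 0.15 (edgeR adjusted p = 0.323 and 0.329). Partners and substrates of the AAA proteases and of OMA1 had the highest median, 0.20 over 13 genes. Without overlap, 7 of the 13 lay above control and 2 below, beside 25.8% and 23.4% of all tested genes. ROMO1, a small inner membrane protein, had 131 and 158 CPM in the knockdown-labelled libraries and 91.9 and 54.5 CPM in control. The 2 control values of ROMO1 were far apart, and its log2 fold change was 0.99 ± 0.22 (SE, edgeR adjusted p = 0.0671), from 0.64 without control replicate 2 to 1.42 without control replicate 1. TIMM17A, an import channel subunit that YME1L1 degrades, had 49.2 and 52.9 CPM in the knockdown-labelled libraries and 34.3 and 32.1 CPM in control. Its groups were tight and apart, at 0.62 ± 0.14 (adjusted p = 0.0660).

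Genes of mitochondrial fusion, fission and cristae, the processes in which OPA1 acts, had a median log2 fold change of 0.07 over 14 genes, with 8 positive and 6 negative. Where 25.8% of all tested genes lay above control without overlap and 23.4% below, 6 of the 14 lay above and 4 below. Those below were DNM1L, the fission GTPase itself, at -0.28, its receptor MFF at -0.24, and CHCHD3 and IMMT, of the complex at cristae junctions, at -0.22 and -0.15, and none passed the test. Of those above, MIEF2, an outer membrane receptor for the fission GTPase, was at 0.59 ± 0.19, and MICOS10, of the cristae complex, at 0.56 ± 0.19 (edgeR adjusted p = 0.149 and 0.17). Partners and targets of LONP1, CLPXP and HTRA2 had a median of 0.09 over 8 genes, with 7 positive and 1, HAX1 at -0.28, negative. BIRC3 and XIAP, inhibitors of apoptosis, were at 0.51 ± 0.19 and 0.33 ± 0.16 (adjusted p = 0.198 and 0.313).

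**Figure D5:**
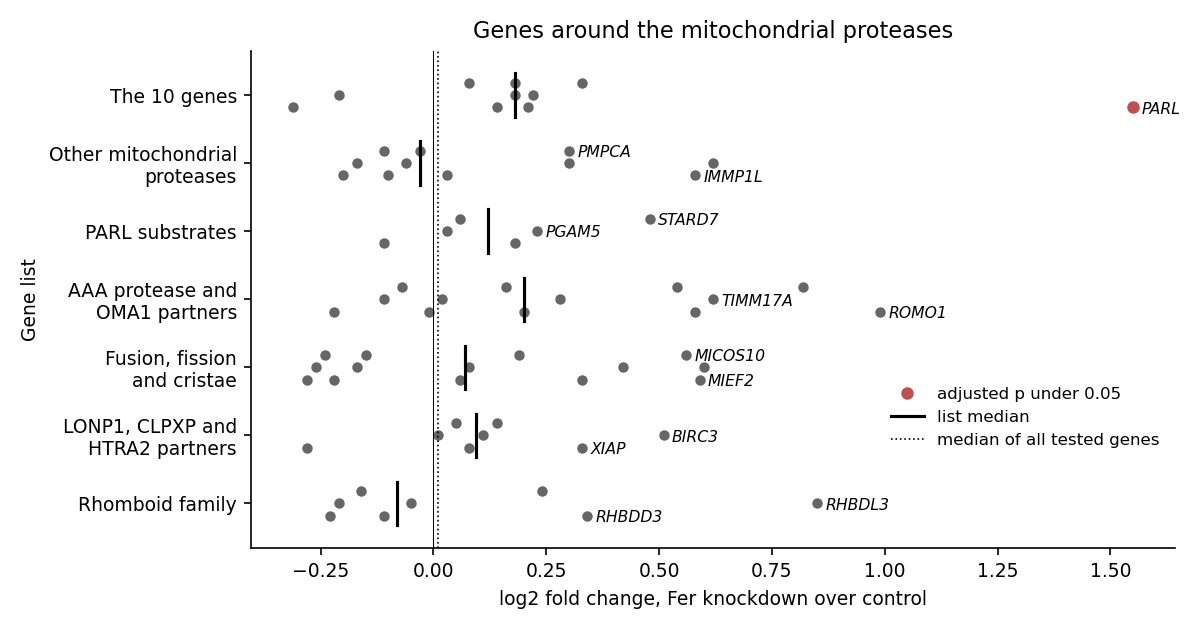
log2 fold change of Fer knockdown over control for the 10 genes and for each of the 60 genes of the 6 lists, with 1 point per gene, a bar at each list's median and a dotted line at the median of all tested genes (0.01). PARL at 1.55 is the 1 point past the threshold, but was chosen for its rise in these libraries, so this is no test. ROMO1 at 0.99 is the highest of the 60.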

How the data were processed

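The authors deposited raw read counts per gene with gene lengths, per the file headers. HISAT2, featureCounts, DESeq2 and the builds hg19 and mm10 are named without versions or roles, per the submitters' processing notes. Libraries were polyadenylated RNA, per the labels' protocols. A column has a shortened name and was assigned to knockdown replicate 1, since no other knockdown sample carries that number. A row without values was left out, which leaves 39634 genes. Counts were tested with edgeR 4.0.16 (R 4.3.3): filterByExpr defaults, TMM factors, quasi-likelihood test without a block, two-sided, Benjamini-Hochberg adjustment over 15336 genes at 0.05, 2 residual degrees of freedom. CPM is on the TMM scale, SE comes from fold change and test statistic, and 95% intervals use 9.97 total degrees of freedom. DESeq2 1.42.0 and limma 3.58.1 (voom) were alternatives. The tests were tried on simulated counts with the same dispersion in both groups, and nothing is concluded from that here. Exon overlaps, principal (APPRIS) transcripts and the printed sequence came from GENCODE release 29 (GRCh38), which matched 39581 identifiers, and no coordinate was taken from the files. Members and lists were chosen with earlier results of these data known. Named genes were the 10 genes, FER, genes sharing exons with PARL, the 5 nearest profiles, and up to 4 called genes per list or, with none, the 2 smallest p. Other genes were named after their values were seen. Wilson intervals cover counting error only.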

Additional observations from a re-analysis of the deposited data

How the results depend on the processing

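PARL, chosen on these values, was at 1.53 to 1.71 on the log2 scale under 10 other scalings, filters, blocks and tests and at 1.29 to 1.82 with a library left out, which describes the size of its difference and does not test it. The other 9 genes kept sign and side of the threshold under those 10. With a library left out, 7 values passed that had not and 3 changed sign, so that LONP1 ranged from -0.02 to 0.38, HTRA2 from -0.01 to 0.38 and OPA1 from -0.08 to 0.26. FER ranged from -0.15 (without control replicate 1) to 0.20. Of the 10 genes, PARL included, 1 to 5 were called with a library left out, and of the 60 list genes 0 to 25. The 25 came without control replicate 1, where 31.3% of all tested genes were called. The 5 came without control replicate 2, where 21.9% of all tested genes were called. Nothing particular to these genes is read from either count.
The number of genes called over the whole table was 99. It was 990 with the replicate number as a block, 192 with upper-quartile factors, 443 with library totals alone (396 higher, 47 lower, median of all genes 0.18), 580 in DESeq2, 178 in limma-voom, 993 without a filter on low counts, 698 with the length trend removed, and 55 to 4793 with a library left out. List genes called were 0, but 6 with the block, 3 with library totals alone, 4 in DESeq2, 1 in limma-voom, 6 without a filter and 4 with the length trend removed. The cause of these shifts was not tested. The numbers were not taken as pairs because the labels do not say that they mark pairs. Same-numbered libraries hardly deviated together (correlation 0.0373 across genes), and the block changed no call among the 10 genes. With the deposited length, which includes the shared bases and was chosen after seeing the data, PARL was at 3.86 CPM per kb in the libraries labelled Fer knockdown. With 54 and 72 control counts, PARL had the fewest of the 10.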
